A study of Mus musculus with 6 samples.

Results

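Ribosome biogenesis and nucleolar factors are the proteins that transcribe, modify, cut and assemble ribosomal RNA (rRNA) into ribosomal subunits. A list of 46 such genes was read on Affymetrix mouse genome arrays, which hold 45101 probe sets of short oligonucleotides. Where several probe sets carried a gene's symbol and no other symbol, the brightest on average across the 6 arrays stood for the gene. In this way 45 of the 46 genes, of 18193 genes named on the array, had a probe set, and Npm3 had none named and is not analysed here. All 45 passed the filter on low signal, which left 12408 genes tested.

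The study targeted LncMyoD, a long non-coding RNA of skeletal muscle, in primary mouse myoblasts, the precursor cells that fuse into myotubes. In 3 samples the myoblasts were infected with lentivirus carrying a short hairpin RNA (shRNA) against LncMyoD in a Tet-pLKO-puro vector, and 3 samples were control myoblasts. Every sample carries an age of 21 days, and the labels give no genotype or strain. The design text calls the controls myoblasts treated with control, which does not say what they received. The labels also do not say whether the shRNA arrays come from a single hairpin, or whether cells were profiled in growth or differentiation medium. They call the replicates biological but name no animals or cultures of origin. The p-values therefore reflect array-to-array spread within these groups, part or all of which may be technical.

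In the nucleolus, RNA polymerase I copies the rRNA genes into a long precursor. Small nucleolar ribonucleoproteins (snoRNPs) of the box C/D and box H/ACA classes guide methylation and pseudouridylation of that precursor. Separate sets of factors then fold and cut it into the small and the large ribosomal subunit. These genes are usually active in growing and dividing cells, and ribosome production is known to decline when myoblasts leave the cell cycle and differentiate.

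Of 6 myoblast and muscle markers, 3 rose, 1 fell and 2 did not pass the test used below. Desmin, Des, stood at 13.26 in shRNA samples and 13.22 in control samples (mean log2 signal, n = 3 each), and Myod1 at 13.82 in shRNA samples and 13.80 in control samples, and neither passed. Pax7 (0.66), Myf5 (0.62, on a dim probe set) and Cdh15 (0.40), which mark myoblasts and their precursors, were higher in shRNA samples. Myog, a gene of differentiating myoblasts, was bright in both groups and lower in shRNA samples by 0.13. Of the other cell type markers looked at, all 3 named adipocyte and all 4 endothelial genes fell below the filter, as did 3 of 5 leukocyte genes. Of the other 2 leukocyte genes, both dim, Cd68 was higher by 0.33 (limma adjusted p = 0.0331) and Cd79a did not pass (-0.091, 0.484). Of 5 fibroblast markers, 3 passed the filter: Pdgfra was higher by 0.89, and Col1a1 (-0.42) and Col3a1 (-0.51) were lower. All 5 together gave a summed signal of 10.64 to 10.79 in shRNA samples against 11.02 to 11.23 in controls (log2). Most of that sum came from Col3a1, the brightest, with a mean of 10.34 in shRNA samples and 10.85 in controls. The 3′ to 5′ signal of control transcripts, a sign of RNA integrity, was higher in shRNA samples by 0.044 for actin and 0.085 for GAPDH on the log2 scale, each with an exact two-sided permutation p = 0.1, the smallest that 20 assignments allow. The part of these marker and integrity differences in the results below was not tested. No probe set was matched to LncMyoD, and its knockdown is not analysed here.

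Nhp2, a core protein of box H/ACA snoRNPs, fell 2.26-fold in the shRNA samples and was the member with the largest difference. Utp15, a subunit of the complex that starts small subunit assembly, rose 1.66-fold. No other member differed by more than 0.5 on the log2 scale on its brightest probe set. Dimmer tested probe sets of Ncl (-0.80 and -0.79) and Wdr12 (0.73) went past 0.5. In limma's test 13 members rose, 8 fell and 24 did not pass the threshold of an adjusted p of 0.05, so 46.7% of the tested members were called. Of all genes tested, 58.5% were called, 35.7% higher and 22.8% lower. The groups did not overlap in 30 members, 21 of them higher and 9 lower in shRNA samples, where 64.7% of all genes did not overlap (39.1% higher and 25.5% lower). The median difference of members was 0.060 and that of all genes 0.045 (shRNA minus control, log2).

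The split into rises and falls depended on scaling. After the tested probe sets of every array were given a common median, 8 members rose and 12 fell, while 58.7% of all genes were called, 29.2% higher and 29.6% lower, and the median difference was -0.0040 for members and -0.019 for all genes. Members were also set beside genes of like signal. Among the 26 members with a mean log2 signal between 10 and 12, 11 were called and the median size of the difference was 0.13, while 70.4% of the 4048 genes in that range were called, with a median size of 0.23. Between 12 and 14, 8 of 15 members were called with a median size of 0.099, against 56.9% of 2616 genes with a median size of 0.12. Past 0.5 in either direction were 4.44% of members and 17.8% of all genes. Since each array reads RNA pooled from many cells, fewer cells expressing a gene and less of its RNA per cell cannot be told apart.

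**Figure D1:**
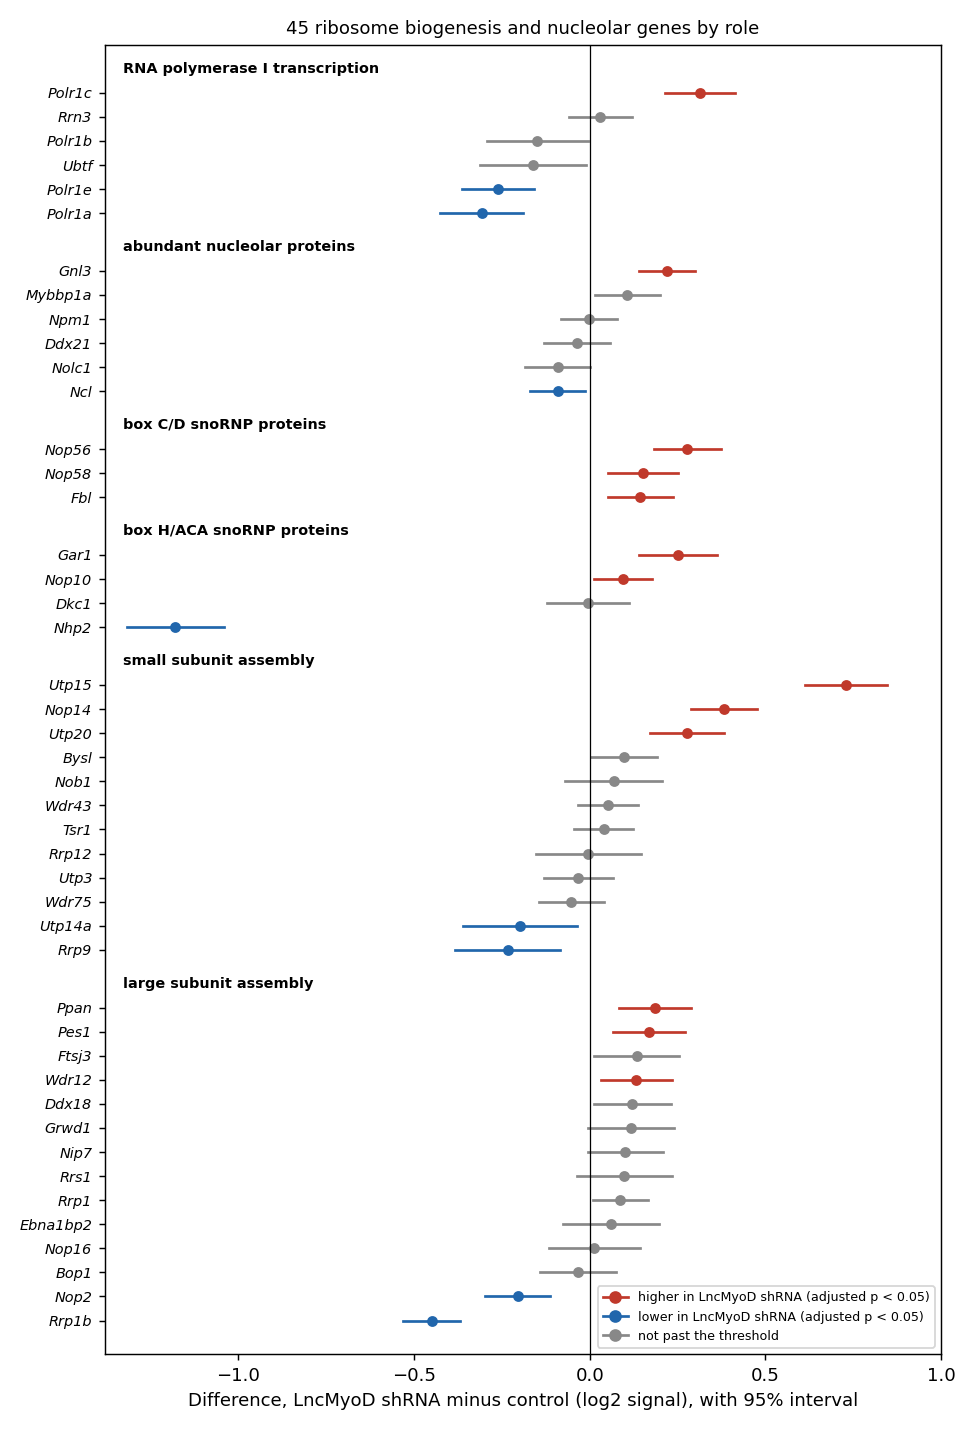
Difference between LncMyoD shRNA and control samples (log2 signal, points) with limma's 95% interval (lines) for the 45 members, grouped by role; n = 3 arrays a group. Nhp2 at -1.18 and Utp15 at 0.73 stand away from the other members, which lie between -0.45 and 0.38.

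**Figure D2:**
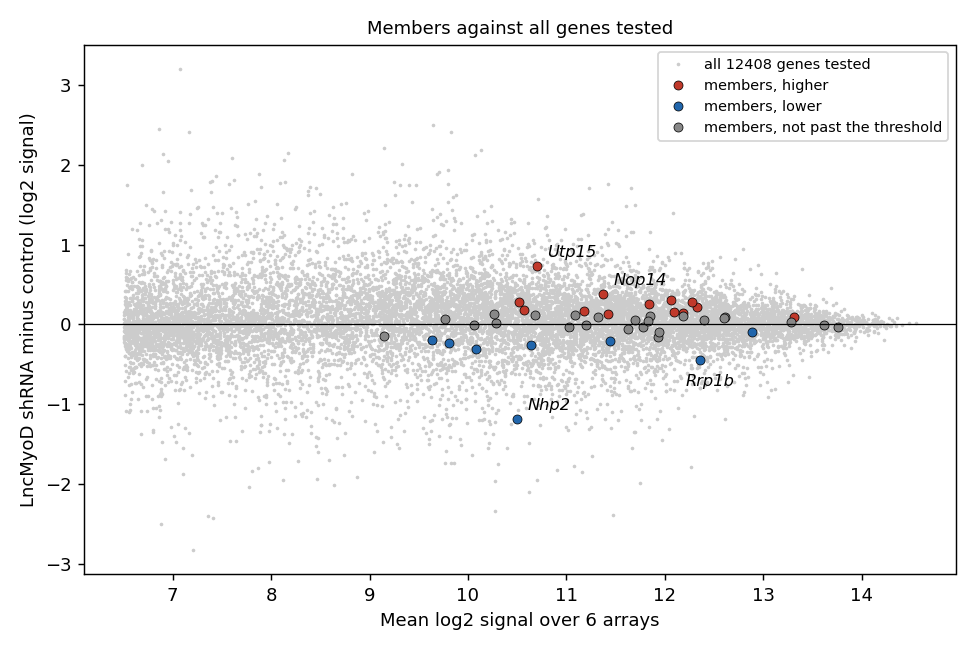
Difference between LncMyoD shRNA and control samples against mean log2 signal over 6 arrays, for the members (coloured points) and all 12408 genes tested (grey points). Most members lie close to 0 within the cloud of genes, and 128 genes lie lower than Nhp2.

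Promoter sequence is shown for the most changed members with a single RefSeq window (assembly GRCm38.p6), as context for genes of the same process that went opposite ways. The 250 bases before the annotated start are printed 5′ to 3′ on the gene's strand. For Nhp2 they lie at chr11:51619523-51619772 on the plus strand, for Utp15 at chr13:98262993-98263242 on the minus strand and for Nop14 at chr5:34660149-34660398 on the minus strand. Capitals mark any CAGCTG or CACGTG, which are E-box sequences, and any CGGAAG on either strand, a form of the sites bound by ETS factors. Other forms of ETS sites were neither searched for nor marked.
Nhp2: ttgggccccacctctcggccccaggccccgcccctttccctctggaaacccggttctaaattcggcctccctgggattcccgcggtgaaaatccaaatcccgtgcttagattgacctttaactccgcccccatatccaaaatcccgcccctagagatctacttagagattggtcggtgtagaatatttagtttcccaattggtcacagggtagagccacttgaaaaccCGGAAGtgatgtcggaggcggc
Utp15: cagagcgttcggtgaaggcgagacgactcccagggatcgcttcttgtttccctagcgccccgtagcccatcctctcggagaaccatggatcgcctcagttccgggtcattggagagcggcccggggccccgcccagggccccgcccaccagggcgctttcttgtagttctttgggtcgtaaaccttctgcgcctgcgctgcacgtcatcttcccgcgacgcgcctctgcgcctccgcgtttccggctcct
Nop14: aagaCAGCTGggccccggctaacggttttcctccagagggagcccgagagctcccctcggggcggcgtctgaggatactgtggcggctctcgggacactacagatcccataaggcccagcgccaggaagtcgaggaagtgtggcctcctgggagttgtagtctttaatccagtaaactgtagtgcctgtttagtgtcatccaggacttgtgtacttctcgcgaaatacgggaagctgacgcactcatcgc
The Nhp2 stretch held CGGAAG starting 22 bases before the start, and the Nop14 stretch held CAGCTG 246 bases before it. Utp15 had none of the 3 sequences. RefSeq windows, from 250 bases before to 50 after the start, were found for 40 of the 45 measured members. Some genes have several windows: of 48 member windows, 31 matched the start of the gene in RefSeq's gene table, as did 60.4% of all windows and the 3 printed here, and for the others positions are relative to the window's own start. CACGTG, the E-box that MYC and related factors bind, was in the windows of 8 of these 40 members (20.0%), against 11.6% of 10023 array-tested genes and 8.09% of 27025 genes in the table. CAGCTG was in 17.5% of members and 18.3% of tested genes. CGGAAG, picked after the sequences had been read and searched with its reverse complement CTTCCG, was in 22 of the 40 members (55%) and 33.6% of tested genes. It occurred in 6 of 12 members that rose, 5 of 8 that fell and 11 of 20 that were not called. For CACGTG these counts were 2 of 12, 1 of 8 and 5 of 20. These matches are descriptions of sequence only.

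RNA polymerase I genes differed both ways: of 6, 2 fell, 1 rose and 3 did not pass, with a median difference of -0.16 (log2). That is 50% called, against 58.5% of all genes tested. The largest subunit, Polr1a, read 9.97, 9.93 and 9.88 in shRNA samples against 10.22, 10.26 and 10.22 in controls (log2 signal). It fell by 0.31 (SE 0.054, limma adjusted p = 0.00037), with no overlap between the groups, and both its other tested probe sets fell too. Polr1e, a subunit found only in this polymerase, read 10.52, 10.52 and 10.50 in shRNA samples against 10.73, 10.79 and 10.80 in controls, a fall of 0.26 (SE 0.048, limma adjusted p = 0.000475). Its probe set is open to cross-hybridization, but the gene's other probe set fell by 0.23 (limma adjusted p = 0.0191). Polr1c, a subunit that RNA polymerase III also uses, moved the other way. It read 12.18, 12.23 and 12.24 in shRNA samples against 11.99, 11.88 and 11.84 in controls, a rise of 0.31 (SE 0.046, limma adjusted p = 8.35e-05), and its other probe set rose by 0.37.

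The second-largest subunit, Polr1b, was lower in all 3 shRNA arrays than in any control, at a mean of 9.08 in shRNA samples against 9.22 in controls, without passing the threshold (difference -0.15, limma adjusted p = 0.0766). It passed with the arrays centred (-0.21, limma adjusted p = 0.0118). Ubtf, which binds and opens the rRNA gene promoter, read 11.70, 11.83 and 12.02 in shRNA samples against 12.10, 12.02 and 11.92 in controls. These groups overlapped, and the difference of -0.16 had a limma adjusted p of 0.0675. Without shRNA array 3 it was -0.25 (limma adjusted p = 0.00396), without control 3 it was -0.21 (0.0457) and with the arrays centred -0.23 (0.015). Without shRNA array 1 it was -0.088 (limma adjusted p = 0.284). Its other, dimmer probe set differed by 0.048 (limma adjusted p = 0.766), and with both averaged the difference was -0.057 (0.528). Rrn3, which brings the polymerase to the promoter, differed by 0.030 (95% interval -0.06 to 0.12).

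The abundant nucleolar proteins mostly did not pass: of 6 tested, 1 rose, 1 fell and 4 missed the threshold. So 33.3% were called, against 58.5% of all genes tested. Gnl3, nucleostemin, a GTPase of dividing precursor cells, read 12.44, 12.45 and 12.42 in shRNA samples against 12.19, 12.25 and 12.21 in controls. That is a rise of 0.22 (SE 0.036, limma adjusted p = 0.000226) with no overlap. Npm1, nucleophosmin, a histone chaperone and assembly factor, averaged 13.62 in both groups, and the 95% interval of its difference ran from -0.08 to 0.08.

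Ncl, nucleolin, a binder of rRNA precursors, depended on the probe set. On its brightest one it read 12.83, 12.87 and 12.81 in shRNA samples against 12.96, 12.91 and 12.91 in controls, a fall of 0.092 (SE 0.036, limma adjusted p = 0.0437). That call was lost without any 1 of the 6 arrays, where the difference lay between -0.109 and -0.0745 (limma adjusted p of 0.0573 to 0.129). Of its 4 other probe sets, 2 fell by 0.14 and 0.18. The dimmest pair fell further, by 0.80 (9.77 ± 0.043 in shRNA samples, 10.57 ± 0.020 in controls, SD, n = 3, limma adjusted p = 6.53e-08) and by 0.79 (9.62 ± 0.044 in shRNA samples, 10.41 ± 0.076 in controls, limma adjusted p = 2.15e-07). All 5 probe sets were thus lower in shRNA samples, by sizes from 0.092 to 0.80.

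Nolc1, a chaperone of snoRNPs, also read lower on dimmer probe sets. Its brightest one differed by -0.091 (limma adjusted p = 0.0909), and the others by -0.27 (0.00967) and -0.24 (0.011). With the arrays centred the brightest passed (-0.16, limma adjusted p = 0.00941). The RNA helicase Ddx21 differed by -0.037 (limma adjusted p = 0.507) on its brightest probe set and by -0.24 (0.00186) on its other. Mybbp1a, which binds RNA polymerase I and other transcription factors, went the other way, at 0.11 (limma adjusted p = 0.0515) on the brightest and 0.28 (0.00159) on the other. The brightest passed without shRNA array 3 (0.14, limma adjusted p = 0.0205).

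All 3 box C/D snoRNP proteins were called higher, with a median of 0.15, where 35.7% of all genes tested were called higher. Nop56, a scaffold of the particle, read 12.45, 12.45 and 12.36 in shRNA samples against 12.10, 12.21 and 12.11 in controls, a rise of 0.28 (SE 0.044, limma adjusted p = 0.00015). Its other probe set rose by 0.36. The paired scaffold Nop58 read 12.18, 12.24 and 12.10 in shRNA samples against 12.08, 11.99 and 12.00 in controls, a rise of 0.15 (SE 0.046, limma adjusted p = 0.0132). Fbl, fibrillarin, the methyltransferase of the particle, read 12.25, 12.26 and 12.26 in shRNA samples against 12.17, 12.13 and 12.03 in controls, a rise of 0.14 (SE 0.043, limma adjusted p = 0.0122). In each gene every shRNA array lay above every control array, as in 39.1% of all genes tested.

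Of the 3, Nop56 held its call in all 15 alternatives. Nop58 lost its call when shRNA array 2 was left out (0.12, limma adjusted p = 0.0773) or control 2 was (0.13, 0.0525), and with the arrays centred (0.088, 0.0934). Fbl fell short when control 3 was left out (0.10, limma adjusted p = 0.0547) and with the arrays centred (0.080, 0.0713). The other probe set of Fbl differed by 0.061 (limma adjusted p = 0.272).

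The 4 box H/ACA proteins form a single particle with a guide RNA, and they did not change alike. Nhp2 read 9.91, 9.96 and 9.85 in shRNA samples against 11.20, 11.11 and 10.95 in controls (log2 signal). The groups stood far apart: 9.90 ± 0.053 in shRNA samples and 11.08 ± 0.12 in controls (SD, n = 3), a fall of 1.18 (SE 0.064, limma adjusted p = 1.36e-08). The gene's second probe set fell by 1.22, with 8.24 ± 0.030 in shRNA samples and 9.46 ± 0.19 in controls (limma adjusted p = 2.47e-07). Over all alternatives the difference lay between -1.25 and -1.12. Of 12408 genes tested, 128 had a lower difference, or 1.03%.

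Gar1, a partner of Nhp2 that helps release modified RNA, read 11.96, 11.97 and 11.98 in shRNA samples against 11.84, 11.68 and 11.63 in controls. It rose by 0.25 (SE 0.051, limma adjusted p = 0.00111), with a 95% interval of 0.14 to 0.36, where that of Nhp2 was -1.32 to -1.04. Dkc1, dyskerin, the pseudouridine synthase of the particle, read 11.22, 11.18 and 11.17 in shRNA samples against 11.15, 11.12 and 11.32 in controls. It differed by -0.00465 (95% interval -0.12 to 0.11), and neither of its other 2 probe sets passed. Nop10, a small protein that binds dyskerin, read 13.30, 13.37 and 13.41 in shRNA samples against 13.29, 13.28 and 13.23 in controls.

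The rise of Nop10 by 0.095 (SE 0.038, limma adjusted p = 0.0494) sat at the threshold. It was lost without shRNA array 2 (0.088, limma adjusted p = 0.148) or 3 (0.070, 0.185), without control 2 (0.10, 0.0747) or 3 (0.077, 0.17), and with the arrays centred (0.031, 0.487). Its other probe set differed by 0.041 (limma adjusted p = 0.436). Particles of this class also hold the telomerase RNA, and 2 factors that assemble them were measured beside the members. Shq1, a dyskerin chaperone, rose by 0.62 (SE 0.11, limma adjusted p = 0.00026), with a mean of 7.66 in shRNA samples and 7.04 in controls. Naf1, which Gar1 replaces as the particle matures, rose by 0.49 (SE 0.043, limma adjusted p = 8.69e-07), and it was singled out after its value was seen.

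**Figure D3:**
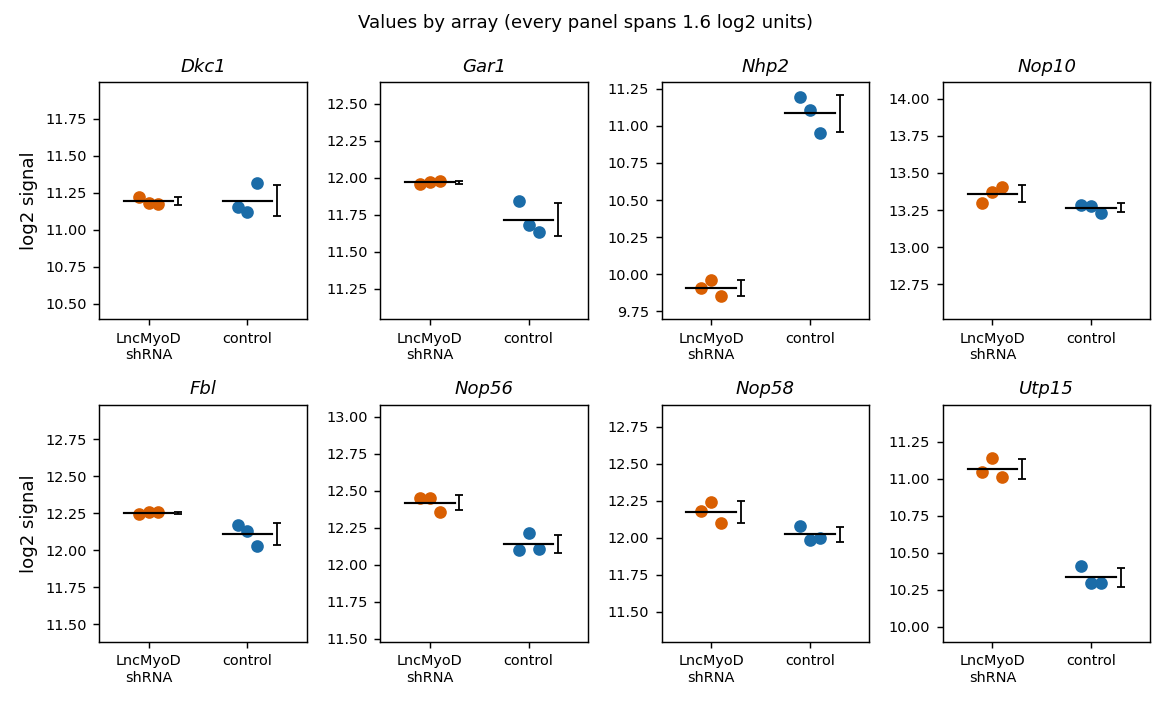
Log2 signal on each array for the 4 box H/ACA proteins (top row), the 3 box C/D proteins and Utp15 (bottom row), in LncMyoD shRNA (orange) and control samples (blue). Horizontal lines are means of 3 arrays and bars are ± 1 SD; each vertical axis has its own range of 1.6 log2 units, and Nhp2 and Utp15 show the widest gaps.

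Genes of small subunit assembly were called in 5 of 12 cases (41.7%, against 58.5% of all genes), 3 higher and 2 lower. Their median difference was 0.046. Utp15 read 11.05, 11.14 and 11.01 in shRNA samples against 10.41, 10.30 and 10.30 in controls, a rise of 0.73 (SE 0.054, limma adjusted p = 1.87e-07). Its other probe set rose by 0.56 (9.94 ± 0.067 in shRNA samples, 9.38 ± 0.085 in controls, SD, n = 3). Utp15 belongs to the UTP-A complex, which binds the precursor first. Its complex partners Wdr43 and Wdr75 differed by 0.052 (limma adjusted p = 0.296) and -0.053 (0.32), although a dimmer probe set of Wdr43 rose by 0.28 (0.000409). Wdr75 passed with the arrays centred (-0.12, limma adjusted p = 0.0481).

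Nop14, a scaffold of the small subunit processome, read 11.61, 11.58 and 11.51 in shRNA samples against 11.19, 11.19 and 11.17 in controls. The rise of 0.38 (SE 0.043, limma adjusted p = 8.35e-06) was the next largest rise of a member after Utp15. Utp20, a very large helical-repeat protein, read 10.68, 10.66 and 10.63 in shRNA samples against 10.40, 10.35 and 10.39 in controls, a rise of 0.28 (SE 0.048, limma adjusted p = 0.000344). None of the shRNA arrays reached the control range in either gene.

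Rrp9, a protein of the snoRNP that guides the first cuts, averaged 9.69 ± 0.071 in shRNA samples and 9.92 ± 0.11 in controls (SD, n = 3), a fall of 0.23 (limma adjusted p = 0.0118). Leaving out shRNA array 3 ended this call (-0.19, limma adjusted p = 0.0517). Utp14a, an activator of a processome helicase in yeast, averaged 9.53 ± 0.026 in shRNA samples and 9.73 ± 0.15 in controls, a fall of 0.20 (limma adjusted p = 0.039). This call was lost without shRNA array 1 (-0.20, limma adjusted p = 0.081), 2 (-0.21, 0.0678) or 3 (-0.19, 0.096), and without control 1 (-0.18, 0.0767) or 2 (-0.14, 0.183). A dimmer probe set of Utp14a fell by 0.46 (limma adjusted p = 0.0015).

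The late-acting small subunit factors among the members did not pass, and small subunit factors outside the member list are given below. Nob1, the nuclease that makes the final cut, differed by 0.068 (limma adjusted p = 0.4), Tsr1 by 0.040 (0.414) and the export factor Rrp12 by -0.00456 (0.963). Utp3, an early processome protein, differed by -0.032 (limma adjusted p = 0.577). Bysl, bystin, differed by 0.098 (limma adjusted p = 0.0733) and passed without shRNA array 3 (0.12, 0.0476), and its other probe set rose by 0.16 (0.0322).

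Genes of large subunit assembly were called in 5 of 14 cases (35.7%, against 58.5% of all genes), 3 higher and 2 lower. Their median difference was 0.10. Rrp1b, a nucleolar relative of Rrp1, read 12.12, 12.18 and 12.10 in shRNA samples against 12.60, 12.60 and 12.56 in controls. It fell by 0.45 (SE 0.038, limma adjusted p = 5.83e-07), and its other probe sets fell by 0.34 and 0.41. Rrp1 itself, the closest relative in the list, differed by 0.087 (95% interval 0.01 to 0.17, limma adjusted p = 0.0584). It passed without control 1 (0.11, limma adjusted p = 0.0269), and its other probe set rose by 0.12 (0.0291).

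Nop2, an rRNA methyltransferase known as a proliferation antigen, read 11.32, 11.37 and 11.33 in shRNA samples against 11.58, 11.56 and 11.50 in controls, a fall of 0.21 (SE 0.043, limma adjusted p = 0.00128). Ppan, an early assembly factor, read 10.64, 10.68 and 10.67 in shRNA samples against 10.48, 10.50 and 10.47 in controls, a rise of 0.18 (SE 0.047, limma adjusted p = 0.00507). Neither pair of groups overlapped.

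Pes1, Bop1 and Wdr12 form the PeBoW complex, which is needed to process the precursor of the large subunit. Pes1 averaged 11.27 ± 0.018 in shRNA samples and 11.10 ± 0.069 in controls (SD, n = 3), a rise of 0.17 (limma adjusted p = 0.00875), which missed the threshold with the arrays centred (0.10, 0.0764). A much dimmer probe set of Pes1 differed by -0.071 (limma adjusted p = 0.683), and with both averaged the difference was 0.049 (0.602). Wdr12 averaged 11.49 ± 0.035 in shRNA samples and 11.36 ± 0.065 in controls, a rise of 0.13 (limma adjusted p = 0.028). That call was lost without shRNA array 1 (0.13, limma adjusted p = 0.0694) or 2 (0.12, 0.106), without control 2 (0.14, 0.0503) or 3 (0.096, 0.107), and with the arrays centred (0.068, 0.158). A dimmer probe set of Wdr12 rose by 0.73 (10.29 ± 0.051 in shRNA samples, 9.55 ± 0.073 in controls, limma adjusted p = 5.38e-07). Bop1 differed by -0.034 (95% interval -0.14 to 0.07).

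The 7 large subunit genes besides Bop1 and Rrp1 that did not pass had differences of 0.013 to 0.13, all positive on the brightest probe sets as deposited. They are Rrs1, Nop16, Ebna1bp2, Ftsj3, Nip7, the helicase Ddx18 and the ribosomal protein chaperone Grwd1. With the arrays centred, Nop16 (-0.051) and Ebna1bp2 (-0.0040) were negative and the rest stayed positive. Among their other tested probe sets, those of Nop16 (-0.11), Ebna1bp2 (-0.19) and Ddx18 (-0.094) included a negative difference, and the rest were positive. Ftsj3 had 0.13 (limma adjusted p = 0.0602). Ddx18 had 0.12 (0.0605) and passed without control 1 (0.16, 0.0205), and its second probe set rose by 0.16 (0.0211). Rrs1 read 12.52, 12.64 and 12.83 in shRNA samples against 12.62, 12.54 and 12.54 in controls, so the groups overlapped. Its difference of 0.099 (limma adjusted p = 0.199) was 0.17 (0.0199) without shRNA array 1 and 0.018 (0.785) without shRNA array 3.

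Probe sets of the same member kept to the same direction wherever both were called. Of all 27023 probe sets tested, 53.9% were called, 30.4% higher and 23.5% lower. Of 31 members with a further tested probe set, 13 were themselves called, and none of these 13 had one called the opposite way. Among 13 called members with another probe set, 10 had all others called the same way, and Fbl, Nop10 and Pes1 had one that did not pass. Among 18 members that were not called, 7 had another probe set that was: Nolc1, Ddx21, Mybbp1a, Wdr43, Bysl, Rrp1 and Ddx18. In each of these the called probe set had the larger difference, which picking them by their calls largely fixed in advance.

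**Figure D4:**
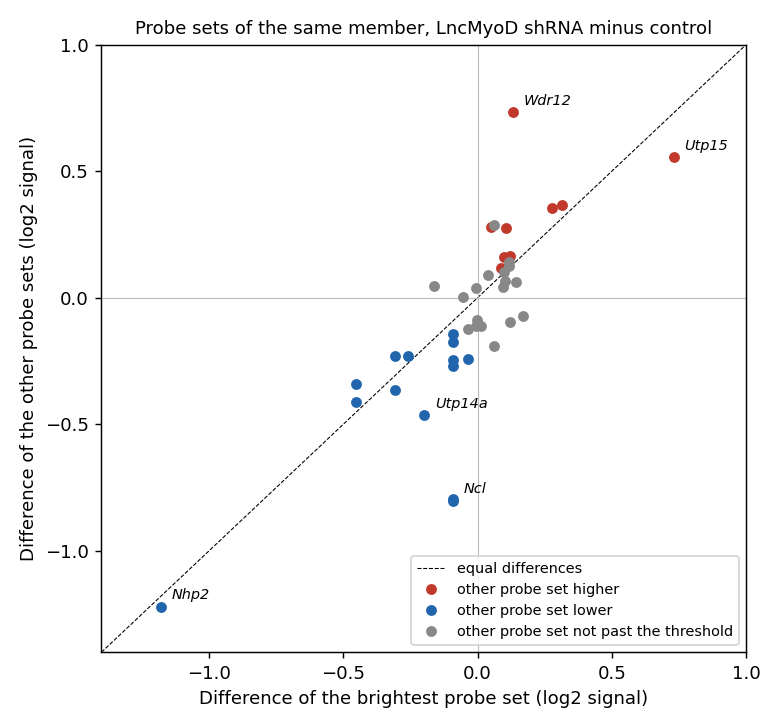
Difference between LncMyoD shRNA and control samples (log2 signal) on the other tested probe sets of a member, against that on its brightest probe set; the dashed line marks equal differences. Nhp2 lies near the line, while dimmer probe sets of Ncl at -0.80 and of Wdr12 at 0.73 lie away from it.

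Other genes of the pathway, from 4 lists with 119 tested genes, were called at 58.0%, with 50 higher and 19 lower and a median of 0.096. The share over all genes was 58.5%, with 35.7% higher and 22.8% lower, against which the counts of each list that follow can also be read. Of 41 other small subunit factors 12 rose and 3 fell. Rrp36 (0.49) and Wdr3 (0.38) had the largest rises, and the kinase Riok1 (-0.46) and Pno1 (-0.30) the largest falls. Of 45 other large subunit factors 22 rose and 9 fell, led by Rpf1 (0.65) and the helicase Ddx55 (0.64) among rises and Ddx10 (-0.60) and Gnl3l (-0.28) among falls. Each of these 8 differences, which were picked for their size, had no overlap between the groups, as had 64.7% of all genes.

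Among 19 other RNA polymerase I and snoRNP assembly genes 10 rose and 4 fell. Beside Shq1, Taf1c (0.61) rose while Taf1b (-0.50) fell, both subunits of the factor that selects the rRNA promoter. Znhit3, a box C/D assembly factor, fell by 0.51. The polymerase subunits Polr1d (0.11, limma adjusted p = 0.0233), shared with RNA polymerase III, Twistnb (0.25, 0.000179) and Znrd1 (0.23, 0.00141) rose, and Cd3eap did not pass (-0.084, 0.378). These 4 subunits were singled out after their values were seen.

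Of 14 genes of the exosome, which trims rRNA, 6 rose and 3 fell. Exosc3 (0.41) and Exosc4 (0.35) rose, and Exosc8 (-0.55) and Mphosph6 (-0.46) fell, but another probe set of Exosc8 was called in the opposite direction. MYC and its relatives are known regulators of ribosome biogenesis genes, and of 12 tested network genes 6 rose and 2 fell. Mxd1 (0.77) and Mxi1 (0.49) rose and Mxd3 (-0.41) fell, all 3 coding for proteins that oppose MYC at E-boxes. Mlxip, a glucose-responsive relative, fell by 0.91. The other 4 that rose were Mycl (0.43), Mnt (0.36), Mlx (0.24) and Mga (0.21). Mycl, a bright member of the MYC family, averaged 12.29 in shRNA samples and 11.86 in controls (limma adjusted p = 5.51e-06). Myc itself averaged 6.62 in shRNA samples and 6.66 in controls, near the filter (limma adjusted p = 0.868). Myc and these 4 genes were added to the largest changes after their values were seen.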

How the data were processed

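Per the series' design text, total RNA was hybridised to Affymetrix arrays. The deposited series table holds log2 signals per probe set, already normalized by the authors, every array having a median of 7.23. Per the submitters' processing notes, PLIER and MAS5 were used. Which of them made these values, and with what settings, is unknown here. From the 45101 probe sets, 64 control probe sets and the 40% with the lowest mean signal (18014) were left out, leaving 27023. Genes were named by the platform annotation: 34958 probe sets had 1 symbol, 932 several and 9211 none. Groups were compared with limma 3.58.1 in R 4.3.3 (lmFit, eBayes with a variance trend), fitted on all tested probe sets without a replicate block, and p-values were adjusted by Benjamini-Hochberg over all 27023. The test was tried on simulated data with 100 changes of 0.5 and 100 of 1 (log2). It recovered 60% and 94% of these, and 3.14% of its calls were false. Far fewer probe sets changed there than were called in the real arrays, so these shares need not carry over. Arrays correlated at 0.996 to 0.997 within groups and 0.987 to 0.990 between them. With 3 arrays a group, their number limits the precision.

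Per-array values are given for the 3 called members of each role with the largest differences, and for other genes the 2 largest rises and falls of each list. Members and lists were chosen with earlier results of these data known. The alternatives were the filter, variance trend, scaling, choice of probe set, replicate block and leaving out each array.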

Additional observations from a re-analysis of the deposited data

How the results depend on the processing

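Under 15 alternatives no member reversed, 13 of the 21 called members kept their call wherever they were tested, 8 lost it at least once, and 12 members that were not called passed at least once. The number of called members lay between 16 and 27, and between 16 and 21 when 1 array was left out. Over all genes, 7253 were called in the main fit, 6418 to 7476 under the alternatives, and 6418 to 7246 when 1 array was left out. The number of genes tested also changed with the filter. With arrays centred on their median, 8 members rose instead of 13, the median over members was -0.0040 (all genes -0.019), RNA polymerase I genes had 5 calls, box C/D proteins 1 and large subunit genes 3. Box C/D proteins also had 1 call without a variance trend. Nucleolar proteins had 1 call without the filter, with a 20% filter, without a variance trend and with scaling on spike-in probe sets, and 5 with probe sets averaged. Exosome genes had 5 calls without the filter and with spike-in scaling. With 1 array left out, nucleolar proteins had 1 to 2 calls, exosome genes 5 to 10, and the median over members was 0.041 to 0.099, the highest without control 1. Deviations from the group mean correlated at -0.134, -0.0615 and 0.0307 between shRNA and control arrays with the same replicate number. Between arrays with different numbers the correlations were -0.107 to 0.137. With 3 arrays a group, these values cannot settle whether the cultures were paired. With the number as a replicate block, 19 members were called, with 1 call among nucleolar proteins. The causes of these changes were not tested. Signal near background limits the dim probe sets.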
